A study of Caenorhabditis elegans with 36 samples.

Results

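The nuclear tRNA genes of *C. elegans* were examined for ChIP-seq peaks of DVE-1 and HDA-1. They were chosen by annotation alone, as every gene of the tRNA biotype on the 6 nuclear chromosomes of WBcel235, which gave 612 of 46890 annotated genes. Of these, 276 lie on X (45.1%) and 336 on the autosomes. Each gene was extended by 100 bp on both sides and was called listed in a condition when a peak of that condition overlapped the extended gene by at least 1 bp. The rule uses the annotation and no peak, although it was set with earlier results of these data known.

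DVE-1 was precipitated from worms with the transgene *dve-1p::dve-1::gfp* and HDA-1 from worms with *hda-1p::hda-1::gfp*, both as whole animals on day 1 of adulthood raised at 20 °C, and each GFP fusion is driven by the promoter of its own gene. Both strains were made in *glp-4(bn2)*, a temperature-sensitive allele that impairs growth of the germline, so all groups carry it, controls included. DVE-1 was mapped under *hda-1* plus *atp-2* RNAi, *hda-1* RNAi, *atp-2* RNAi and control RNAi (the empty vector L4440), and HDA-1 under *dve-1* plus *atp-2* RNAi, *dve-1* RNAi, *atp-2* RNAi and control RNAi. The gene *atp-2* encodes part of the ATP synthase of mitochondria, and its RNAi was given after the first RNAi. The 36 samples were 18 ChIP and 18 input samples, with 2 ChIP samples per condition, except for 3 where *dve-1* RNAi was combined with HDA-1 ChIP. The sample codes of the conditions with 3 share a prefix that no other condition has, so whatever that prefix stands for and *dve-1* RNAi cannot be told apart. For both proteins, the samples with *hda-1* or *dve-1* RNAi are also numbered in a block apart from all other samples. What that numbering reflects is not stated, so it and *hda-1* or *dve-1* RNAi cannot be told apart either. The study deposited 1 list of peak positions per condition, 8 in all, with no score, signal or read count. The depth behind a list and the spread between samples therefore cannot be read from them, so no difference between lists was tested, and intervals below are 95% Wilson intervals over genes that cover counting error only. In whole animals, a peak lost from fewer cells and a peak lost in every cell cannot be told apart. No list from worms without a GFP tag was analysed here.

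Transfer RNAs carry amino acids to the ribosome, and their genes are transcribed by RNA polymerase III from a promoter inside the gene. That promoter has an A box near the start and a B box near the end, both bound by the factor TFIIIC, which brings TFIIIB and the polymerase. Transcription ends at a short run of T just after the gene. HDA-1 is a class I histone deacetylase, and DVE-1 is a homeodomain protein known from the mitochondrial unfolded protein response, in which worms switch on nuclear genes when their mitochondria are disturbed. Both are better known for their action at genes of RNA polymerase II.

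The genes are short and repeated. The 612 genes were 64 to 122 bp long, with a median of 72 bp, and held 200 distinct sequences, of which 143 occurred in 1 copy and 57 in more, the largest family with 29 identical copies. RefSeq named the amino acid of 607 genes, for 21 amino acids including the single selenocysteine gene. The following sequences, read from the RefSeq copy of WBcel235, are the genes in the most lists on their chromosome, with ties broken by covered bases. Each is written 5′ to 3′ along its own strand, and capitals mark the B box, searched as GTTCNANNC.
F10C1.t2: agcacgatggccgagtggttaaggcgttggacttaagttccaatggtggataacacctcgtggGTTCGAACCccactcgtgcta
C14B9.t2: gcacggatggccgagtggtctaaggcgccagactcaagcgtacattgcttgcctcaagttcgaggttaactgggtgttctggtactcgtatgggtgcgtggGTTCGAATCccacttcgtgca
ZK822.t1: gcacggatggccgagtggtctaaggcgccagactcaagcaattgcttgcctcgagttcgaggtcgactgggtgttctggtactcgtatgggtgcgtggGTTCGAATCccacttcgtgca
F57F5.t1: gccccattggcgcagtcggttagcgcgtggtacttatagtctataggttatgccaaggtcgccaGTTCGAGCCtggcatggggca
F42F12.t1: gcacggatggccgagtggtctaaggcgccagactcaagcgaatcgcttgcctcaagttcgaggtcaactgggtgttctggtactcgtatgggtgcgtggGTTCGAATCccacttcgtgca
All of these were in all 8 lists. F10C1.t2 is a leucine gene at chrII:5772916-5772999 on the minus strand, inside *dmd-5*. C14B9.t2, a leucine gene at chrIII:8109603-8109724 on the plus strand, lies inside the protein-coding gene C14B9.3. The leucine genes ZK822.t1 at chrIV:11928478-11928596 and F42F12.t1 at chrX:12348007-12348126, both on the minus strand, lie outside protein-coding genes. F57F5.t1, an isoleucine gene at chrV:12002176-12002260 on the plus strand, lies 379 bp from the 5′ end of *gcy-33*. The annotation gives C14B9.t2, ZK822.t1 and F42F12.t1 introns of 38, 35 and 36 bp and F57F5.t1 an intron of 11 bp, all within the sequences shown. At F42F12.t1 the peaks were 444, 848, 681 and 487 bp wide in the 4 DVE-1 lists, and 484, 836, 585 and 571 bp wide in the 4 HDA-1 lists, in the order of conditions given above. In each of the 8 lists the peak covered the whole extended gene of 320 bp. The peaks at F10C1.t2 were 520, 974, 542 and 416 bp wide for DVE-1 and 506, 463, 654 and 903 bp wide for HDA-1, so these too were short segments over the gene. At F57F5.t1 they were 3119 to 4213 bp wide for DVE-1 and 2418 to 3266 bp wide for HDA-1, wide enough to take in the neighbouring promoter.

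Identical genes were not listed alike. A proline family of 24 copies, the third in size, had 14 members in all 8 lists and 3 in none. Its member in the most lists, ZK970.t1 (chrII:10302399-10302470, plus strand, inside *clpp-1*), and its member in the fewest, Y71H2AM.t1 (chrIII:2711711-2711782, plus strand, inside *tmem-132*), are shown with 40 bp on either side, because the gene itself, in capitals, is the same in both and only the flanks differ.
ZK970.t1: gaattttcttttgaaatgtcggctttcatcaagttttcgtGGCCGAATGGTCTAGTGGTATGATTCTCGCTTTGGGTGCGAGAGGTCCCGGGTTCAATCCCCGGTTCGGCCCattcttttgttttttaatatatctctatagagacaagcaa
Y71H2AM.t1: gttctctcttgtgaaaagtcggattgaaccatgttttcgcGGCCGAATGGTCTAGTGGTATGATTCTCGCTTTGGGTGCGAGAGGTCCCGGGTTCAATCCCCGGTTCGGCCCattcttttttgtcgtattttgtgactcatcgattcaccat
ZK970.t1 was wholly covered in all 8 lists, by peaks of 4711, 4807, 4257 and 4315 bp for DVE-1 and 4514, 3652, 4782 and 4909 bp for HDA-1. Y71H2AM.t1 had no peak within 100 bp in any list. The share of 50-bp words of the extended gene that occur once in the genome is a rough guide to where reads could be placed. The authors required unique mapping. This share was 62.8% for ZK970.t1 and 81.6% for Y71H2AM.t1. The pair also differed in position. ZK970.t1 lies 372 bp from the 5′ end of *clpp-1* and within 1000 bp of another tRNA gene, and its peaks were wide enough to take in that promoter. Y71H2AM.t1 lies alone, 4832 bp from the nearest protein-coding 5′ end. The part of mappability or position in this difference was not tested.

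Other sequences are shown because they stand for patterns described below, and were chosen after their values were seen: the selenocysteine gene, the largest arginine family, the largest leucine family and a tyrosine family that have all copies on X, and the histidine family whose cluster was listed only in part.
K11H12.t1: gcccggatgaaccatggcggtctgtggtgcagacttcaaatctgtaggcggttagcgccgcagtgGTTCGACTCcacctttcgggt
C14F11.t1: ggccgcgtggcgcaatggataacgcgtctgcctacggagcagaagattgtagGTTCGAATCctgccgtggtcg
F14B8.t1: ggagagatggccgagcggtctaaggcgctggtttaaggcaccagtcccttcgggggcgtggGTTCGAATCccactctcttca
C02B4.t2: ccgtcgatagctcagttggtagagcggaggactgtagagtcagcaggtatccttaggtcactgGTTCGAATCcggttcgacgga
F28H6.t2: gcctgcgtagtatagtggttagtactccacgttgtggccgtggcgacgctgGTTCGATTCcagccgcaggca
K11H12.t1 (chrIV:658181-658266, plus strand) inserts selenocysteine, the amino acid of a few redox enzymes, and has no other copy. It was in all 8 lists, under peaks 2924, 2761, 5507 and 4671 bp wide for DVE-1 and 4769, 4712, 5795 and 7878 bp wide for HDA-1. The arginine family of C14F11.t1 (chrX:6220070-6220142, minus strand) has 10 copies, of which 8 were in all 8 lists, the leucine family of F14B8.t1 (chrX:6903114-6903195, minus strand) has 9, of which 4 were, and the tyrosine family of C02B4.t2 (chrX:12665228-12665311, plus strand) has 6, of which 5 were. The other families with all copies on X had 3 of 4 valine genes, 0 of 3 arginine genes and 0 of 2 arginine genes in all 8 lists, while the share over all tRNA genes was 60.1%. The histidine gene F28H6.t2 is at chrX:14135045-14135116 on the plus strand.

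In each of the 8 lists, most tRNA genes carried a peak. For DVE-1, 483 of 612 genes (78.9%, 75.5 to 82.0) were listed under *hda-1* plus *atp-2* RNAi, 451 (73.7%, 70.1 to 77.0) under *hda-1* RNAi, 501 (81.9%, 78.6 to 84.7) under *atp-2* RNAi and 439 (71.7%, 68.0 to 75.2) under control RNAi. For HDA-1, 464 (75.8%, 72.3 to 79.0) were listed under *dve-1* plus *atp-2* RNAi, 446 (72.9%, 69.2 to 76.2) under *dve-1* RNAi, 474 (77.5%, 74.0 to 80.6) under *atp-2* RNAi and 513 (83.8%, 80.7 to 86.5) under control RNAi. The highest share was that of HDA-1 and the lowest that of DVE-1, both under control RNAi. The background was a window of 272 bp, the median length of an extended tRNA gene, centred on the 5′ end of each of 19973 nuclear protein-coding genes. In the same order it was listed for 29.3%, 24.9%, 27.2% and 16.9% of genes for DVE-1, and for 26.2%, 23.1%, 27.1% and 27.9% for HDA-1. The share of tRNA genes was thus 2.69, 2.96, 3.01 and 4.23 times that of protein-coding 5′ ends in the DVE-1 lists and 2.86 to 3.16 times in the HDA-1 lists. The largest ratio went with the shortest list, that of DVE-1 under control RNAi with 4279 peaks, against 6484 to 9862 in the others.

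**Figure D1:**
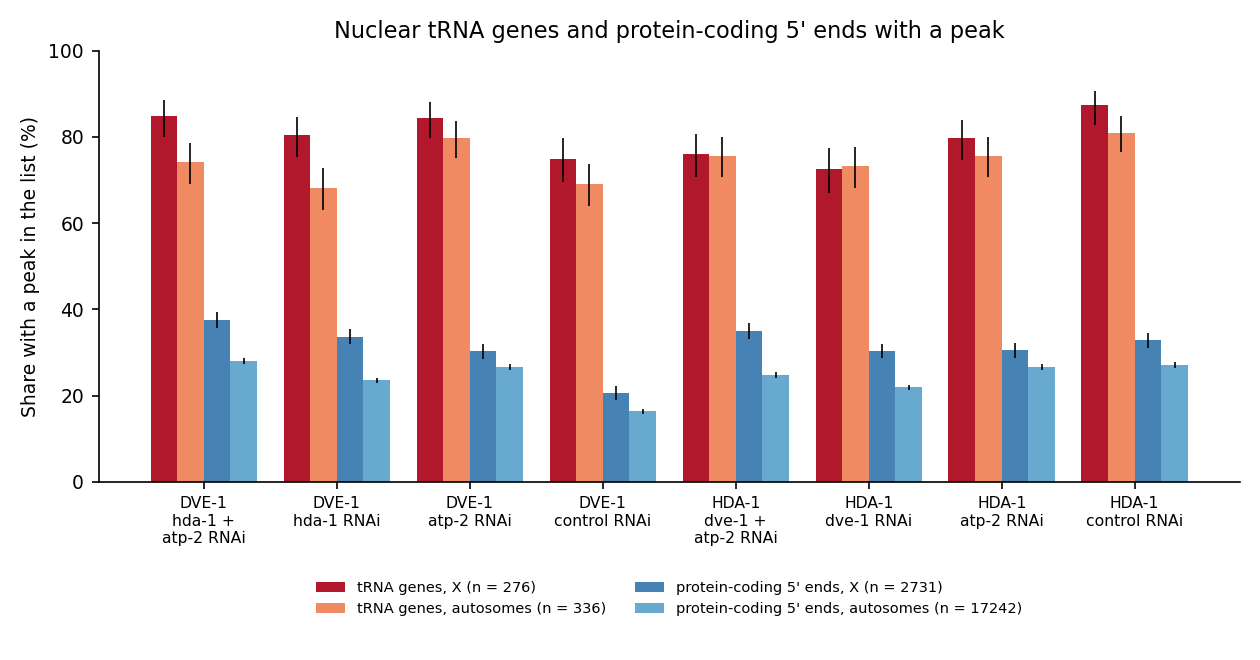
Share of nuclear tRNA genes and of protein-coding 5′ ends (y axis, %) with a peak in each of the 8 lists (x axis), on X and on the autosomes; bars on the columns are 95% Wilson intervals over genes. The tRNA columns stand between 68.2% and 87.3%, above the protein-coding columns of 16.4% to 37.5% in every list.

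The same genes were listed again and again. Of the 612 tRNA genes, 368 (60.1%) were in all 8 lists, against 11% of protein-coding 5′ ends, and 59 (9.64%) were in none, against 58.8%. Between these ends the 185 remaining genes were spread thinly, with 19 to 39 genes for each number of lists from 1 to 7. All 4 DVE-1 lists held 398 tRNA genes (65.0%), against 14.4% of protein-coding 5′ ends. All 4 HDA-1 lists held 427 (69.8%), against 18.2%. At least 1 DVE-1 list but no HDA-1 list held 28 genes (4.58%), where the share of protein-coding 5′ ends was 6.65%, and at least 1 HDA-1 list but no DVE-1 list held 21 (3.43%), where it was 7.04%.

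**Figure D2:**
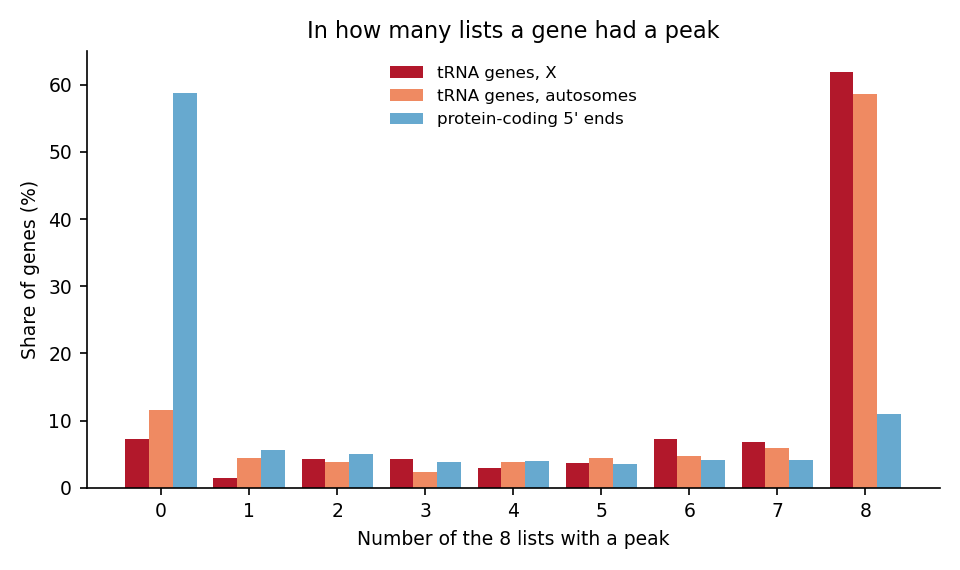
Share of genes (y axis, %) by the number of lists with a peak (x axis, 0 to 8) for tRNA genes on X, tRNA genes on the autosomes and protein-coding 5′ ends. The tRNA genes pile up at 8 lists, with 62.0% on X and 58.6% on the autosomes, where protein-coding 5′ ends pile up at 0 with 58.8%.

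Coverage by peaks was highest over the tRNA genes themselves. At the 5′ end of the gene, 70.9% to 83.3% of tRNA genes were covered in the 8 lists, and the highest coverage lay 0 to 25 bp into the gene. Coverage had dropped to 50% of its highest value or less within 325 to 550 bp upstream and 350 to 500 bp downstream. At 3000 bp it was 9.97% to 15.8% upstream and 8.01% to 13.2% downstream. Protein-coding genes had their highest coverage 150 to 225 bp upstream of the 5′ end, with 14.4% to 25.1% of them covered at the 5′ end. Of peaks with a single tRNA gene and no protein-coding 5′ end within 500 bp, 122 to 183 in a list, 48.0% to 71.0% had their centre within 100 bp of the middle of the tRNA gene. Most listed genes were covered whole: 81.4% to 92.8% of those listed for DVE-1 and 70.4% to 91.8% of those listed for HDA-1 lay under peaks from end to end of the extended gene. The lowest of these, 74.6% and 70.4%, were those of the HDA-1 lists with *dve-1* RNAi, in which the median width of peaks without a tRNA gene was also the smallest, at 703.5 and 730 bp.

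**Figure D3:**
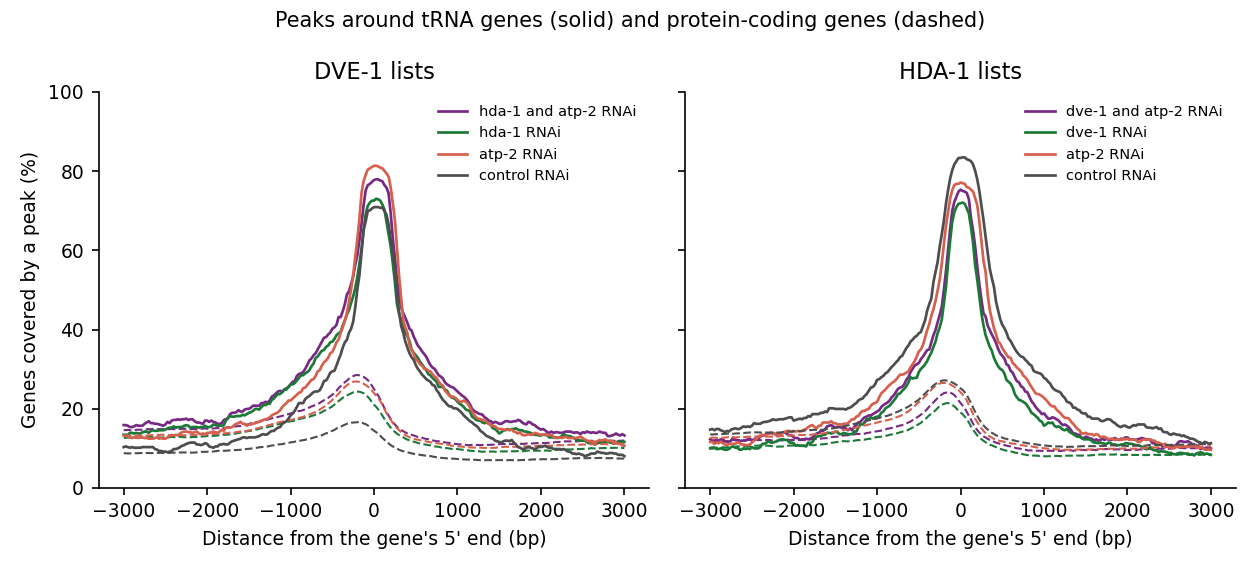
Share of genes covered by a peak (y axis, %) at each distance from the 5′ end of the gene, oriented by strand (x axis, bp), in the DVE-1 lists (left) and the HDA-1 lists (right). Solid lines are the 612 tRNA genes, which reach 70.9% to 83.3% at the 5′ end, and dashed lines the 19973 protein-coding genes, which reach 14.4% to 25.1% there.

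Peaks lay at most tRNA genes also far from protein-coding 5′ ends. Of the 612 genes, 104 lay under 500 bp from the nearest protein-coding 5′ end, 235 at 500 to 2000 bp and 273 farther away. Those over 2000 bp away were listed in 76.2%, 68.1%, 80.2% and 69.2% of cases for DVE-1 and in 73.6%, 70.7%, 74.7% and 83.2% for HDA-1. Windows of the same width at such distances that held no tRNA gene were listed in 12%, 10.7%, 10.1% and 7.56% of cases for DVE-1 and in 13.8%, 12%, 11.3% and 13.2% for HDA-1. Genes under 500 bp away were listed in 78.8% to 86.5% for DVE-1 and 78.8% to 85.6% for HDA-1. Of the 290 tRNA genes inside a protein-coding gene, 164 (56.6%) were in all 8 lists, against 204 of 322 genes outside (63.4%).

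Other short genes of known RNA classes were listed less often than tRNA genes. Genes of small nuclear RNAs, which serve in splicing, were listed in 34.1% to 52.7% for DVE-1 and 31% to 39.5% for HDA-1 (129 genes, extended in the same way). Genes of small nucleolar RNAs, which guide the modification of other RNAs, were listed in 43.6% to 47.7% for DVE-1 and 52.0% to 55.8% for HDA-1 (346 genes), and miRNA genes in 26.4% to 34.9% and 31.8% to 35.6% (261 genes). The 15363 piRNA genes, of small RNAs of the germline, were listed in 2.64% to 5.99% for DVE-1 and 2.69% to 4.11% for HDA-1. These classes differ in gene length, from a median of 21 bp for piRNA genes to 130 bp for small nucleolar RNA genes, so their windows differ in width.

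On X, the share of listed genes was higher than on the autosomes in all 4 DVE-1 lists. It was 84.8% on X and 74.1% on autosomes under *hda-1* plus *atp-2* RNAi, where protein-coding 5′ ends had 37.5% and 28% listed. Under *hda-1* RNAi it was 80.4% on X and 68.2% on autosomes, with 33.7% and 23.5% of protein-coding 5′ ends. Under *atp-2* RNAi it was 84.4% on X and 79.8% on autosomes, with 30.3% and 26.7% of protein-coding 5′ ends. Under control RNAi it was 75.0% on X and 69.0% on autosomes, with 20.6% and 16.4% of protein-coding 5′ ends. The X minus autosome difference was therefore 10.7 percentage points (95% interval by Newcombe's method, 4.23 to 16.9), 12.3 points (5.32 to 19), 4.66 points (−1.52 to 10.6) and 5.95 points (−1.23 to 12.9), with an interval above 0 only under the *hda-1* RNAi conditions. Protein-coding 5′ ends had differences of 9.43, 10.2, 3.59 and 4.21 points in these lists, in the same order and of like size.

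For HDA-1, the X difference was near 0 for tRNA genes under *dve-1* RNAi and not for protein-coding 5′ ends. Under *dve-1* plus *atp-2* RNAi, 76.1% of tRNA genes on X and 75.6% on autosomes were listed, a difference of 0.49 points (−6.38 to 7.22), while protein-coding 5′ ends had 35% and 24.8%, a difference of 10.2 points. Under *dve-1* RNAi the shares of tRNA genes were 72.5% on X and 73.2% on autosomes, a difference of −0.75 points (−7.87 to 6.26), while those of protein-coding 5′ ends were 30.3% and 21.9%, 8.38 points apart. Under *atp-2* RNAi they were 79.7% and 75.6% for tRNA genes, 4.11 points apart (−2.58 to 10.6), with 30.5% and 26.6% for protein-coding 5′ ends. Under control RNAi they were 87.3% and 81.0%, 6.37 points apart (0.49 to 12.1), with 32.8% and 27.1% for protein-coding 5′ ends. Whether the X difference itself differed between conditions was not tested. Among the autosomes, the share on chromosome II was the highest in all 8 lists, from 75.4% to 89.5% of 57 genes for DVE-1 and from 84.2% to 93.0% for HDA-1.

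Against control RNAi, more tRNA genes were listed with *atp-2* RNAi for DVE-1 and fewer for HDA-1. For DVE-1, 71 tRNA genes were listed only with *atp-2* RNAi and 9 only without it, a net of 62 genes or 10.1 points. The same contrast gave 11.1% of protein-coding 5′ ends only with *atp-2* RNAi and 0.866% only without it, a net of 10.2 points, close to the net of the tRNA genes. Of the 173 tRNA genes not in the DVE-1 control list, 41.0% were listed with *atp-2* RNAi, against 13.4% of the protein-coding 5′ ends not in it. The tRNA genes only with *atp-2* RNAi included F22B7.t1, a leucine gene on chromosome III, and K11C4.t1, an isoleucine gene on chromosome V. Both were in 7 lists and missing from the DVE-1 control list alone. At K11C4.t1 the peaks were 584, 482 and 524 bp wide in the DVE-1 lists that held it and 348, 421, 423 and 626 bp wide in the HDA-1 lists. In all, 17 genes were in every list but that one (2.78%), where the share of protein-coding 5′ ends was 2.09%. For HDA-1, 4 genes were listed only with *atp-2* RNAi and 43 only without it, a net of −39 genes or −6.37 points, where protein-coding 5′ ends had 2.55% and 3.35%, a net of −0.80 points. Of the 513 genes of the HDA-1 control list, 8.38% were not in the list with *atp-2* RNAi, against 12% of the protein-coding 5′ ends of that control list. F02D10.t3, a leucine gene on X with no other copy, was wholly covered by peaks of 2166 bp for DVE-1 and 2163 bp for HDA-1 under control RNAi and had no peak in the other 6 lists. It was 1 of 5 tRNA genes (0.817%) listed in both control lists alone, where 10 protein-coding 5′ ends (0.0501%) were. The others were Y40H7A.t1, W06G6.t3, ZK678.t5 and ZK678.t2, and this pattern was chosen after its values were seen.

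Under RNAi against the partner, more tRNA genes were listed only with *atp-2* RNAi than only without it for both proteins. The same held for protein-coding 5′ ends. For DVE-1 under *hda-1* RNAi, 41 genes (6.70%) were listed only with *atp-2* RNAi and 9 (1.47%) only without it, a net of 32 genes or 5.23 points. Protein-coding 5′ ends had 5.95% and 1.54%, a net of 4.41 points. K01A6.t1, a histidine gene inside *magi-1* on chromosome IV, was in the list of DVE-1 under *hda-1* plus *atp-2* RNAi alone. It lay there under a peak of 2002 bp. C18D4.t1, a tyrosine gene on chromosome V, was in every list but that of DVE-1 under *hda-1* plus *atp-2* RNAi. For HDA-1 under *dve-1* RNAi, 26 genes (4.25%) were listed only with *atp-2* RNAi and 8 (1.31%) only without it, a net of 18 genes or 2.94 points. Protein-coding 5′ ends had 4.82% and 1.71%, a net of 3.11 points. When only peaks of 500 bp or wider were counted, the net for tRNA genes was 4.90 points. B0513.t1, a histidine gene inside *prdh-1* on chromosome IV, was 1 of the 26, with a peak of 1043 bp under *dve-1* plus *atp-2* RNAi and a peak of 385 bp in the HDA-1 control list, and no peak elsewhere.

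With RNAi against the partner, more tRNA genes were listed only without it than only with it in 3 of 4 contrasts. For HDA-1, 6 genes were listed only under *dve-1* RNAi and 73 only under control RNAi, a net of −67 genes or −10.9 points, where protein-coding 5′ ends had 2.84% and 7.67%, a net of −4.83 points. Of the 73 genes, 46 were on X and 27 on autosomes, where the HDA-1 control list held 241 and 272 tRNA genes. As a share of the control list this was 14.2% of its 513 tRNA genes and 27.5% of its protein-coding 5′ ends. Counting only peaks of 500 bp or wider, the net was −22.1 points. With *atp-2* RNAi present, 19 genes were listed only with *dve-1* RNAi (4.9% of protein-coding 5′ ends) and 29 only without it (5.81%), a net of −10 genes or −1.63 points, and of −10.8 points with the wider peaks only. Both HDA-1 lists without *dve-1* RNAi, and neither with it, held 21 tRNA genes (3.43%), 13 of them on X, where the share of protein-coding 5′ ends was 3.34%. The leucine gene C48C5.t4 and the isoleucine gene C29F7.t1, both on X, were such genes. C29F7.t1 was covered by peaks of 1047 bp under *atp-2* RNAi and 1057 bp under control RNAi for HDA-1, and by peaks of 1076 to 1214 bp in the 3 DVE-1 lists other than control. K02D3.t1, a gene on X without an amino acid in RefSeq, was 1 of 3 genes with the opposite pattern (0.49%, and 1.74% of protein-coding 5′ ends), and lay under peaks of 800 and 775 bp in the HDA-1 lists with *dve-1* RNAi alone. For DVE-1, 49 genes were listed only under *hda-1* RNAi and 37 only under control RNAi, a net of 12 genes or 1.96 points, where protein-coding 5′ ends had 9.82% and 1.86%, a net of 7.97 points. With *atp-2* RNAi present, 22 genes were listed only with *hda-1* RNAi and 40 only without it, a net of −18 genes or −2.94 points, where protein-coding 5′ ends had 5.72% and 3.59%, a net of 2.13 points. In this last contrast the net was positive for protein-coding 5′ ends and negative for tRNA genes. The 2 classes started from unlike shares in the list with *atp-2* RNAi alone. Of the 501 tRNA genes in it, 7.98% were not listed with *hda-1* RNAi added, against 13.2% of its protein-coding 5′ ends. Of the 111 tRNA genes not in it, 19.8% were listed with *hda-1* RNAi added, against 7.86% of protein-coding 5′ ends not in it. Of the 40 genes listed only without *hda-1* RNAi, 29 were autosomal, as were 268 of the 501 genes of the DVE-1 list with *atp-2* RNAi. Protein-coding 5′ ends listed on 1 side only were not split by chromosome. F31E9.t1, a tyrosine gene on chromosome V, was listed for DVE-1 under *atp-2* RNAi (peak of 980 bp) and under control RNAi (819 bp) and in no other list. These contrasts share lists with each other and are not independent.

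**Figure D4:**
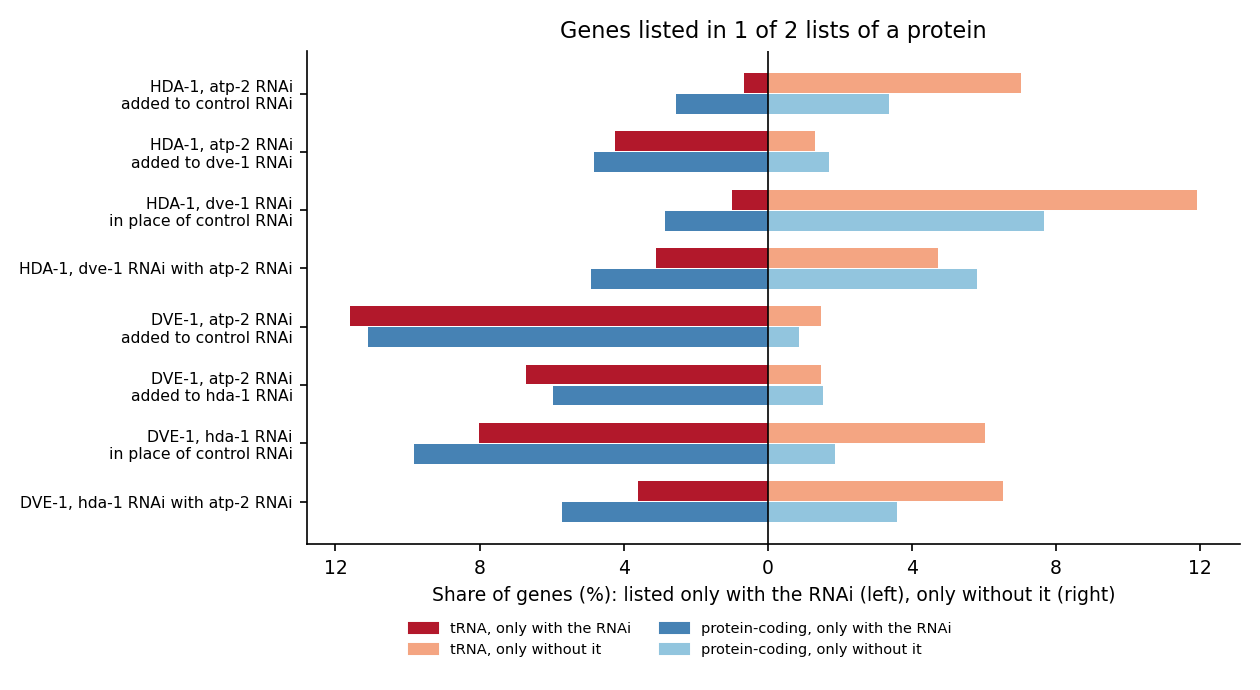
Share of genes (x axis, %) listed only with the RNAi named in the row (left of 0) and only without it (right of 0), for tRNA genes (reds, n = 612) and protein-coding 5′ ends (blues, n = 19973), with 1 row for each of 8 contrasts. The longest tRNA bars are the 11.9% of genes listed for HDA-1 only without *dve-1* RNAi and the 11.6% listed for DVE-1 only with *atp-2* RNAi.

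Set against each other in the same RNAi, DVE-1 and HDA-1 lists held mostly the same tRNA genes. Under control RNAi, 8 tRNA genes (1.31%) were listed for DVE-1 only and 82 (13.4%) for HDA-1 only, where protein-coding 5′ ends had 1.46% and 12.4%. The 431 genes in both were 98.2% of the DVE-1 list and 84.0% of the longer HDA-1 one. Of protein-coding 5′ ends, 3092 were in both, out of 3384 listed for DVE-1 and 5575 for HDA-1. Under *atp-2* RNAi, 42 genes (6.86%) were listed for DVE-1 only and 15 (2.45%) for HDA-1 only, where protein-coding 5′ ends had 4.41% and 4.34%. The 459 genes in both were 91.6% of the DVE-1 list and 96.8% of the HDA-1 list. Of protein-coding 5′ ends, 4549 were in both, out of 5430 listed for DVE-1 and 5415 for HDA-1.

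The genes in all 8 lists were more often repeated and clustered. Of the 143 genes in 1 copy, 54 (37.8%, 30.2 to 45.9) were in all 8 lists and 31 (21.7%) in none. The shares in all 8 were 66.4% (58.6 to 73.5) for the 152 genes with 2 to 9 identical copies and 67.2% (61.8 to 72.1) for the 317 genes with 10 or more. Genes within 1000 bp of another tRNA gene were in all 8 lists in 179 of 236 cases (75.8%, 70.0 to 80.9) and genes alone in 189 of 376 (50.3%, 45.2 to 55.3). The count of copies and the clustering went together only in part, since genes in 1 copy that lay alone were in all 8 lists in 30 of 100 cases and in no list in another 30, while those in a cluster were in all 8 in 24 of 43 cases and in none in 1. On X, 94 of 135 clustered genes (69.6%) and 77 of 141 lone genes (54.6%) were in all 8 lists. On autosomes these were 85 of 101 (84.2%) and 112 of 235 (47.7%). Split this way after the values were seen, lone genes were listed more often on X than on autosomes in all 8 lists (63.8% to 84.4% on X, 58.3% to 75.3% on autosomes), and clustered genes less often (74.8% to 92.6% on X, 89.1% to 94.1% on autosomes), which was not tested. A wide peak can list several genes at once, so clustered genes are not independent of each other. With overlapping extended genes merged, the 612 genes formed 555 loci.

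**Figure D5:**
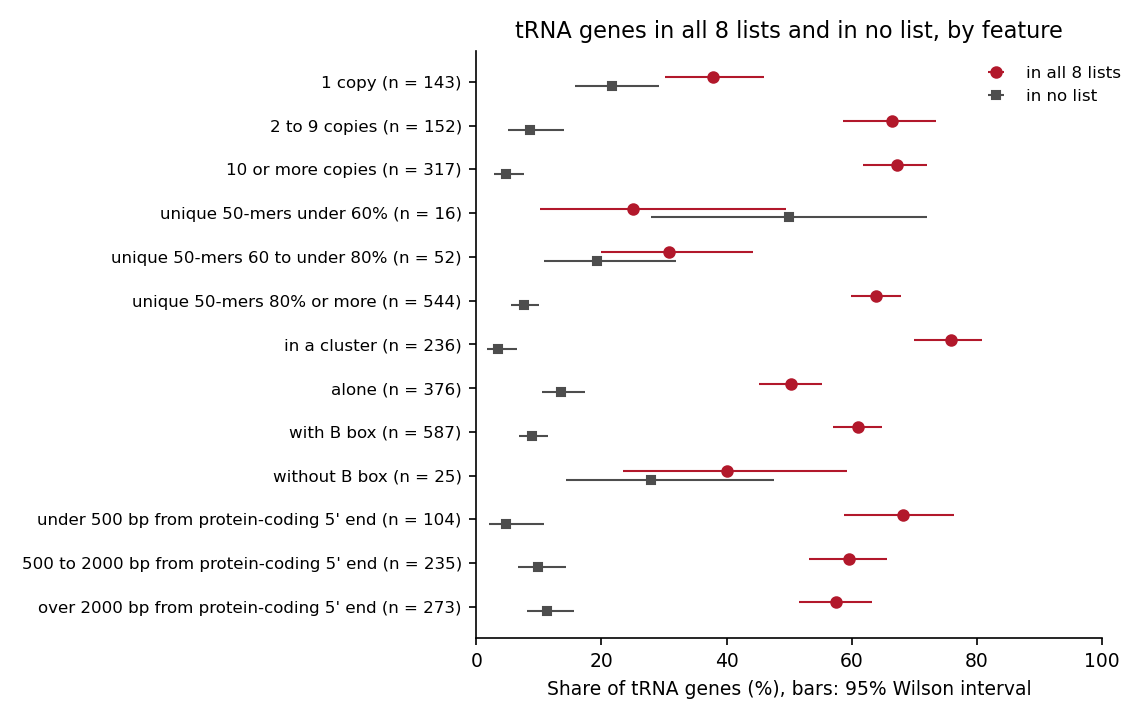
Share of tRNA genes (x axis, %) in all 8 lists (circles) and in no list (squares) by a feature of the gene (rows, with n); lines are 95% Wilson intervals over genes. Genes in 1 copy reach 37.8% in all 8 lists and genes in a cluster 75.8%.

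There were 100 clusters with 236 genes, 54 of them on X, and in 69 every gene was in all 8 lists. The cluster of F22F1.t2 to F22F1.t7 on X holds 6 genes in 2263 bp, for serine, aspartate, methionine and isoleucine. A peak of 4827 to 5103 bp in each DVE-1 list, and one of 3042 to 3677 bp in each HDA-1 list, lay over them, and all 6 genes were in all 8 lists. The cluster of K01A12.t1 to K01A12.t3 on X holds 5 genes for arginine and cysteine in 930 bp, inside the protein-coding gene K01A12.3, and all of these too were in all 8 lists. The cluster of histidine genes at F28H6 on X holds 6 identical copies in 1966 bp and was listed only in part. F28H6.t2 at one edge was in 6 lists, F28H6.t7 next to it in 5 and F28H6.t5 at the other edge in 6, and the 3 genes between them, F28H6.t3, F28H6.t6 and F28H6.t4, in none. The share of unique 50-bp words was 78.5%, 35.4% and 60.1% for the listed genes and 0%, 18.8% and 0% for the unlisted ones. The part of mappability in this pattern was not tested.

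Few genes had a low share of unique words. The share of unique 50-bp words was 80% or more in 544 of the 612 extended genes, with 348 of these (64%, 59.9 to 67.9) in all 8 lists and 41 (7.54%) in none. It was 60% to under 80% in 52 genes, with 16 (30.8%, 19.9 to 44.3) in all 8 and 10 in none. In the 16 genes under 60%, 4 were in all 8 and 8 in none. Words of 50 bp are only a guide, since longer or paired reads can be placed where such words cannot. Of the 57 families of identical genes, 14 had every member in all 8 lists, 2 had every member in none and 14 had a member in all 8 and a member in none. Among the 20 families of 10 or more copies, 1 was wholly in all 8 lists, that of 12 cysteine genes, and 10 held both extremes. In the largest family, of glycine, 23 of 29 copies were in all 8 lists, and 1, Y51H4A.t3 on chromosome IV with 61.0% unique words, was in none. Of the 25 identical lysine genes, 18 were in all 8, and F42H10.t1, inside *mig-39* on chromosome III with 81.7% unique words, was in none. Of the 21 identical aspartate genes, 13 were in all 8, and W06G6.t3 on chromosome V was in 2, the lists of both proteins under control RNAi. Of the 20 identical glutamate genes, 14 were in all 8, and F52E10.t5 on X was in 3, under peaks of 412 bp for DVE-1 with *atp-2* RNAi, 416 bp for HDA-1 with *atp-2* RNAi and 633 bp for HDA-1 with control RNAi.

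By the amino acid carried, all 13 cysteine genes were in all 8 lists, as was the selenocysteine gene. Glutamate followed with 29 of 41 genes (70.7%), tyrosine with 13 of 19 (68.4%) and alanine with 23 of 34 (67.6%). The lowest shares were those of tryptophan, 5 of 12 (41.7%), isoleucine, 13 of 29 (44.8%), and histidine, 9 of 20 (45%), the last with 3 of the F28H6 genes among its 5 in no list. No aspartate gene of 27 and no glutamate gene of 41 was missing from every list. Of the 5 genes without an amino acid in RefSeq, 0 were in all 8 lists. These groups are small, and the interval for histidine, 25.8% to 65.8%, overlapped that for glutamate, 55.5% to 82.4%. The interval was 77.2% to 100% for cysteine, 28.4% to 62.5% for isoleucine and 19.3% to 68.0% for tryptophan. These groups were picked by their values from 21 amino acids, and no difference between amino acids was tested. Of the 13 cysteine genes, 12 are identical copies of 1 sequence. Among these, K01A12.t5, K01A12.t4 and K01A12.t2 lay under 1 shared peak in each list, so the cysteine genes are not independent of each other. The 29 genes annotated with an intron, for tyrosine, leucine and isoleucine, were in all 8 lists in 20 cases (69.0%, 50.8 to 82.7) and the 583 without in 348 (59.7%, 55.7 to 63.6).

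The B box motif was found in most genes whether listed or not, and the A box motif in fewer. The B box motif, GTTCNANNC on the strand of the gene, was found in 587 of 612 genes (95.9%), with a median start 21 bases from the end of the gene. On both strands it was in 96.6% of the extended genes, against 8.48% of the 19973 protein-coding windows of 272 bp. The A box motif, TNGCNNAGT, was found in 219 genes (35.8%), with a median start at base 8, and on both strands in 40.2% of the extended genes and 6.92% of the protein-coding windows. Both motifs were found in 207 genes, of which 131 (63.3%) were in all 8 lists. The motifs do not overlap each other, and a gene without a match to these letters may still hold a box spelled otherwise. The B box was in 358 of the 368 genes in all 8 lists (97.3%), in 177 of the 185 in 1 to 7 lists (95.7%) and in 52 of the 59 in none (88.1%). Of the 25 genes without it, 10 were in all 8 lists (40%, 23.4 to 59.3) and 7 in none, against 358 of 587 with it (61.0%, 57.0 to 64.9). A run of 4 T within 20 bases after the gene was found for 602 genes, and of the 10 without it 2 were in all 8 lists and 4 in none.

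The protein-coding genes that serve tRNA genes and tRNAs are few, and their counts are read against all protein-coding 5′ ends, of which 16.9% to 29.3% were listed for DVE-1 and 23.1% to 27.9% for HDA-1. With so few genes, the counts can show neither a difference from those shares nor its absence, and none was tested. Of 11 genes of RNA polymerase III and its factors, 2, 2, 4 and 1 had a peak in the 272-bp window at their 5′ end in the DVE-1 lists and 4, 4, 5 and 4 in the HDA-1 lists. *rpac-19*, a subunit shared by RNA polymerases I and III, was in all 8 lists, and *rpc-1*, the largest subunit of RNA polymerase III, in 7. *mafr-1*, the worm form of the polymerase III repressor Maf1, and *snpc-4*, a subunit of the small nuclear RNA activating complex, were each in 5, among them all 4 HDA-1 lists. *tftc-1*, a subunit of TFIIIC, had a peak for HDA-1 under *atp-2* RNAi and in no other list. *brf-1* and *tbp-1*, parts of TFIIIB, were in none, nor were *rpc-2*, *rpac-40*, *tftc-3* and *tftc-5*. Of 9 genes for the maturation, export and modification of tRNA, 2, 2, 2 and 1 were listed for DVE-1 and 1, 1, 2 and 4 for HDA-1. *xpo-3*, the nuclear exporter of tRNA, was in all 8 lists, and *elpc-1*, of the Elongator complex that modifies the wobble base, in 5. *hoe-1*, the enzyme that trims the 3′ end of tRNA, and *elpc-2* were in the HDA-1 control list alone, and 5 of the 9 were in none.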

How the data were processed

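Members, gene lists and the rule for named genes were chosen with earlier results of these data known. Chromatin was precipitated through the GFP tag and sequenced beside input. The authors trimmed reads with Trim Galore and mapped them to ce11, the same assembly as WBcel235, with BWA 0.7.13-r1126. They kept uniquely mapping, properly paired reads, removed duplicates with Picard 2.17.6 and called broad peaks with MACS2 2.1.1. The deposited lists, 1 per condition, give where each peak lies and no score, count or other unit. How samples were combined is not given in the sources used here. The depth behind a list cannot be read from these files.

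Genes came from Ensembl 115, and amino acids and sequence from the RefSeq copy of WBcel235, which placed all 612 tRNA genes at the same coordinates. Positions are counted from 1. Overlaps were computed in Python 3.11.15 with numpy 2.4.6, and the 8 counts of listed tRNA genes equalled those of bedtools 2.31.1. The code was tested on simulated data, in which 2000 of 2000 planted genes were found and 0 others. Samples were grouped by the labels. With 1 list per condition there was no test between conditions. No list was filtered, and no per-sample column was left out. Named genes were, per chromosome, the gene in the most lists, per contrast up to 2 genes listed on 1 side only with the most covered bases, the extremes of the 5 largest families, and the 3 largest clusters. Sequences on chromosome I, or identical to a gene there, are not printed. Alternatives changed the flank, the overlap, the peak width and the unit counted.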

Additional observations from a re-analysis of the deposited data

Results flagged for a closer look

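Net changes in listed tRNA genes (genes only with the RNAi minus genes only without it) of opposite sign in matched contrasts are given here. With 1 list per condition, none of these differences was tested.

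Addition of *atp-2* RNAi to control RNAi gave a net of 62 genes for DVE-1 and of −39 genes for HDA-1. In points these were 10.1 and −6.37, where protein-coding 5′ ends had 10.2 and −0.80. The same addition for HDA-1 on *dve-1* RNAi gave a net of 18 genes or 2.94 points, where protein-coding 5′ ends had 3.11. Those opposite signs were thus seen for protein-coding 5′ ends too. For DVE-1, *hda-1* RNAi gave a net of −18 genes (−2.94 points) with *atp-2* RNAi and of 12 genes (1.96 points) without it. Protein-coding 5′ ends had nets of 2.13 and 7.97 points there, both positive. Within the contrast without *atp-2* RNAi the net was 15 genes on X and −3 on the autosomes, and within the contrast with *atp-2* RNAi it was 1 gene on X and −19 on the autosomes.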

How the results depend on the processing

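The 8 shares of listed genes, the 8 X minus autosome differences and the 8 net changes were each recomputed under 5 alternatives. Of the 120 values, 106 stayed within the interval of the value reported, 11 moved outside it and 3 changed sign. Without a flank, with a flank of 250 bp, with 50% of the extended gene required and with overlapping genes merged into 555 loci, all shares stayed within their intervals, between 69.9% and 84.5% over the lists. With only peaks of 500 bp or wider, the shares for DVE-1 were 67.3% under *hda-1* plus *atp-2* RNAi, 61.4% under *hda-1*, 69.6% under *atp-2* and 58.7% under control RNAi, and for HDA-1 57.0% under *dve-1* plus *atp-2* RNAi, 52.1% under *dve-1*, 67.8% under *atp-2* and 74.2% under control RNAi. Protein-coding 5′ ends then had 15.2% to 25.1% for DVE-1 and 17.6% to 25.1% for HDA-1. With those peaks the net change for HDA-1 was 4.90 points for *atp-2* RNAi added to *dve-1* RNAi, −22.1 points for *dve-1* in place of control RNAi and −10.8 points for *dve-1* with *atp-2* RNAi (reported as 2.94, −10.9 and −1.63 points). The cause was not tested. The X minus autosome difference for HDA-1 under *dve-1* RNAi, reported as −0.75 points, was 0.40 points with a flank of 250 bp and 2.73 points with peaks of 500 bp or wider. Under *dve-1* plus *atp-2* RNAi, reported as 0.49 points, it was −0.66 points with 50% coverage required. All of these lie within the intervals reported.

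No paired analysis was possible because each condition has 1 list. Leaving out a replicate was not run, as each list stands for a whole condition.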
